A study of Homo sapiens with 18 samples.

Results

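The 9 genes described here are NFE2L2, which encodes the transcription factor NRF2, and 8 genes known as its antioxidant targets: NQO1, HMOX1, GCLM, GCLC, TXNRD1, SRXN1, SLC7A11 and OSGIN1. They were taken by symbol, each found as 1 row among the 40916 gene symbols of the count tables, and all 9 passed the filter on low counts in every comparison. Their messenger RNA was counted in 18 libraries from MCF10A cells, HCT116 cells and mixed cultures of both, 6 groups of 3 biological replicates. MCF10A is a non-transformed human mammary epithelial line, which here carried a histone H2B-GFP reporter and was grown in F12:DMEM with horse serum, EGF, hydrocortisone, cholera toxin and insulin. HCT116 is a human colorectal carcinoma line, here unlabelled, described as p53-null and grown in McCoy's 5A medium with fetal bovine serum. Mixed cultures were set up with 50% of each line, and their medium is not given in the sources used here. Each kind of culture was studied without irradiation (NIR) and after 10 Gy of ionizing radiation (IR). The harvest is placed at day 2 by the sample titles and at 72 h by the series description. Levels are counts per 1000000 counts of the library (CPM), which depend on transcript length, so they are compared between groups for a gene and not between genes.

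NRF2 is a transcription factor that cells keep scarce by a protein, KEAP1, that hands it to a ubiquitin ligase for degradation. Oxidants and electrophiles modify KEAP1, NRF2 then builds up, pairs with a small MAF protein and binds antioxidant response elements, short motifs near genes of glutathione synthesis, thiol reduction and detoxification. Ionizing radiation produces reactive oxygen species in cells. Because NRF2 is controlled mainly as a protein, the RNA level of NFE2L2 does not report its activity, which was not measured here.

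The sequences below show where letters of the antioxidant response element stand close to the start sites of these genes. Promoter windows of RefSeq (GRCh38.p14), from 250 bases before to 50 bases after a gene's start, were found for 7 of the 9 genes. The search, on both strands, used TGACNNNGC, the core of the element, and TGAGTCAGC, a form that also holds the AP-1 motif. At least 1 match was present in the windows of GCLM, TXNRD1 and OSGIN1. Each 30-base stretch is written 5′ to 3′ on the gene's strand, with the match in capitals, and in all but the first TXNRD1 stretch the match reads on the opposite strand.

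GCLM, chr1:93909445-93909474 (- strand), match from position -34: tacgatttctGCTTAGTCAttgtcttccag
TXNRD1, start site 1, chr12:104215670-104215699 (+ strand), match from position -99: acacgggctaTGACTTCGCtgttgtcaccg
TXNRD1, start site 1, chr12:104215761-104215790 (+ strand), match from position -8: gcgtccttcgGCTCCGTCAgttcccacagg
TXNRD1, start site 2, chr12:104286920-104286949 (+ strand), match from position -102: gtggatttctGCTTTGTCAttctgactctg
OSGIN1, chr16:83953131-83953160 (+ strand), match from position -99: acgggcccctGCTGACTCAcgcttatgaaa

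The core TGACNNNGC was found in 13.3% of the 35116 RefSeq promoter windows of that length, and TGAGTCAGC in 0.461%. A match is a description of the letters and not a binding site. The windows of NFE2L2 (2 start sites), NQO1, GCLC and SRXN1 held neither motif. GCLM and GCLC encode the 2 subunits of 1 enzyme and had lower RNA after irradiation in every kind of culture, as given below. Their 250 bases upstream of the start are shown for that reason, 5′ to 3′ on the gene's strand, with the single match in capitals.

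GCLM, chr1:93909431-93909680 (- strand): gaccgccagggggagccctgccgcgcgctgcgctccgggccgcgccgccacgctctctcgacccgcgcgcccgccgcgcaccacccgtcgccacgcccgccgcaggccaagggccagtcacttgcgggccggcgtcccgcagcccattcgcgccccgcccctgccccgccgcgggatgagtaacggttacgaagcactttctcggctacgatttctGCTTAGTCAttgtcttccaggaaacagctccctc
GCLC, chr6:53545102-53545351 (- strand): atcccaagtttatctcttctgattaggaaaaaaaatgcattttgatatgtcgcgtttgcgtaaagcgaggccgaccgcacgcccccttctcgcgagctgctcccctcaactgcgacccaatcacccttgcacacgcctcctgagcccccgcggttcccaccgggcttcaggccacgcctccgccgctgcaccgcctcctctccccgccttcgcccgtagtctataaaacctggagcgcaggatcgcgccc

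The libraries held 25737818 to 40839835 counts, and mitochondrially encoded genes took 5.10% to 12.7% of them, most in irradiated HCT116 and mixed libraries. CDKN1A, which encodes the cell cycle inhibitor p21, rose in irradiated MCF10A, HCT116 and mixed cultures with log2 fold changes of 1.76, 2.33 and 2.19. MKI67, a proliferation marker, fell with log2 fold changes of -1.57, -1.84 and -1.82. The described p53 status of HCT116 was not tested here. A list of 10 basal mammary genes summed to 10290 to 12610 CPM in MCF10A and to 236 to 425 CPM in HCT116, and a list of 8 intestinal genes to 865 to 1789 CPM in HCT116 and under 1 CPM in MCF10A. The intestinal transcription factor gene CDX1 had no count in HCT116 monocultures, and KRT19 carried most of that list's sum. In HCT116 the basal sum was mostly CAV1, the caveolin 1 gene, at 286 of 295 CPM without and 372 of 397 CPM with irradiation. The mixed cultures resembled HCT116: their basal genes summed to 313 to 349 CPM without irradiation and to 459 to 504 CPM after it.

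After irradiation SLC7A11, GCLC and GCLM were lower and HMOX1 was higher in all 3 kinds of culture, and NQO1 and SLC7A11 fell by more than 2-fold in HCT116. Genes are called changed here at an adjusted p under 0.05 in edgeR's quasi-likelihood test, with Benjamini-Hochberg adjustment over all genes tested. In MCF10A, 2 of the 9 genes were higher and 6 lower after 10 Gy, where 55.4% of all genes tested were called (26.2% higher and 29.2% lower). In HCT116, 1 was higher and 4 lower, with 52.5% of all genes called (25.3% higher and 27.2% lower). In the mixed cultures 3 were higher and 5 lower, with 49.4% called (24.0% higher and 25.4% lower). The median log2 fold change of the 9 genes was -0.20, -0.13 and -0.24 in MCF10A, HCT116 and mixed cultures, and that of all genes lay between 0.00 and 0.01. With so many genes called in these comparisons, a call by itself carries little information, and the sizes are given gene by gene.

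**Figure D1:**
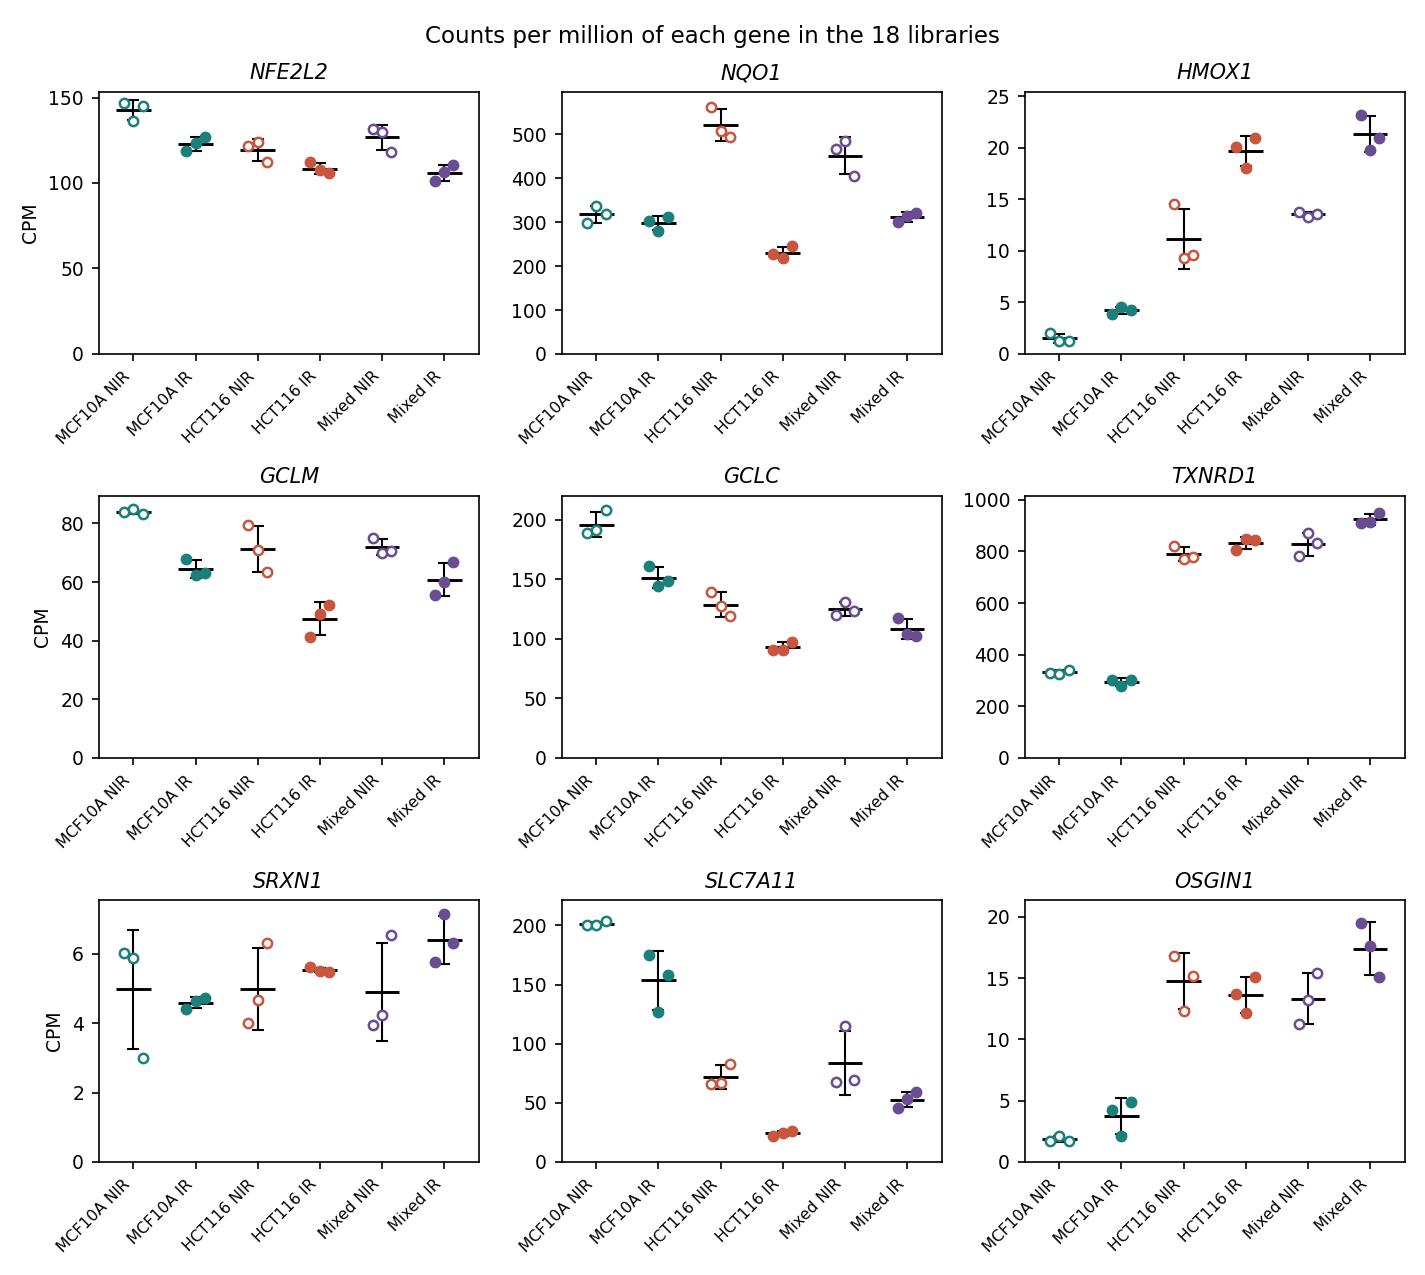
Level of each of the 9 genes in CPM (y axis, from 0, own scale per gene) in the 6 groups (x axis), with open points for non-irradiated and filled points for irradiated libraries, and bars for the mean ± SD of 3 libraries. SLC7A11 falls to 22.1 to 26.5 CPM in irradiated HCT116, and NQO1 to 219 to 245 CPM, below every library of the other groups.

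NFE2L2 (chr2:177230303-177264727) itself moved little. MCF10A libraries had 147, 136 and 145 CPM without irradiation and 119, 124 and 127 CPM after it. HCT116 libraries had 122, 124 and 112 CPM without and 112, 107 and 106 CPM with irradiation. Mixed libraries went from 132, 129.9 and 118 CPM to 101, 107 and 111 CPM. Irradiated and non-irradiated libraries stood apart in MCF10A and in the mixed cultures and overlapped in HCT116. NFE2L2 fell in MCF10A with a log2 fold change of -0.24 (SE 0.0476, adjusted p = 0.00012) and in the mixed cultures with -0.28 (SE 0.0610, adjusted p = 0.00058). In HCT116 the log2 fold change was -0.13 and did not pass the test (95% interval -0.26 to 0.00, adjusted p = 0.082), but it passed without HCT116 NIR replicate 3 (adjusted p = 0.034, in a range of 0.034 to 0.25 over the alternatives). Exons of NFE2L2 overlap those of AGPS on the opposite strand in GENCODE 29, and whether the counting used strand is not given in the sources used here, so its level carries that uncertainty.

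SLC7A11 (chr4:138164097-138242349) encodes the cystine carrier of the exchanger that brings cystine into the cell for glutathione synthesis. Its level was 200.1, 201 and 203 CPM in non-irradiated MCF10A and 175, 127 and 159 CPM after irradiation. HCT116 libraries had 65.6, 66.9 and 83.1 CPM without irradiation and 22.1, 24.5 and 26.5 CPM with it. The mixed libraries had 68.0, 115 and 69.0 CPM without irradiation and 46.0, 53.1 and 59.1 CPM with it. Every irradiated library lay below every non-irradiated library of the same kind of culture. SLC7A11 fell in HCT116 with a log2 fold change of -1.56 (SE 0.0943, adjusted p = 2.8e-12), a 2.94-fold lower level. The fall in MCF10A was smaller, with a log2 fold change of -0.41 (SE 0.0658, adjusted p = 4.6e-06). In the mixed cultures the log2 fold change was -0.70 (SE 0.139, adjusted p = 0.00024), and without Mixed NIR replicate 2, the library at 115 CPM, it was -0.40 (adjusted p = 0.00058, in a range up to 0.04 over the alternatives). The antisense gene SLC7A11-AS1 overlaps its exons and reached at most 2.68 CPM in any library.

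GCLC (chr6:53497341-53545101) and GCLM (chr1:93885199-93909430) encode the catalytic and the modifier subunit of glutamate-cysteine ligase, which makes the first and rate-limiting step of glutathione synthesis. GCLC went from 189, 192 and 208 CPM to 161, 144 and 149 CPM in MCF10A. In HCT116 it went from 139, 128 and 119 CPM to 90.8, 90.5 and 97.8 CPM, and in the mixed cultures from 120.1, 131 and 124 CPM to 118, 104 and 103 CPM. GCLM went from 84.0, 85.0 and 83.3 CPM to 67.9, 62.4 and 63.0 CPM in MCF10A, from 79.4, 70.9 and 63.5 CPM to 41.2, 49.1 and 52.3 CPM in HCT116, and from 75.1, 70.1 and 70.7 CPM to 55.6, 60.0 and 67.0 CPM in the mixed cultures. For both genes the irradiated libraries lay below the non-irradiated ones in all 3 kinds of culture. The log2 fold changes of GCLC were -0.39 (SE 0.0486, adjusted p = 7e-08) in MCF10A, -0.46 (SE 0.0652, adjusted p = 2.5e-06) in HCT116 and -0.23 (SE 0.0657, adjusted p = 0.0053) in the mixed cultures. Those of GCLM were -0.41 (SE 0.0546, adjusted p = 3.2e-07), -0.58 (SE 0.0866, adjusted p = 5.6e-06) and -0.27 (SE 0.0711, adjusted p = 0.0036). Of the 2 promoter windows printed above, that of GCLM holds the core motif. Exons of GCLC overlap those of 2 non-coding genes in GENCODE 29, which have no rows in the count tables.

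NQO1 (chr16:69709401-69726560) encodes a quinone reductase of detoxification. MCF10A libraries had 299, 338 and 318 CPM without irradiation and 302, 279.8 and 311 CPM with it. HCT116 libraries had 562, 509 and 493 CPM without irradiation and 228, 219 and 245 CPM with it. The mixed libraries had 466, 485 and 405 CPM without irradiation and 299.6, 313 and 322 CPM with it. The irradiated libraries lay below the non-irradiated ones in HCT116 and in the mixed cultures, and the 2 sets overlapped in MCF10A. NQO1 fell in HCT116 with a log2 fold change of -1.17 (SE 0.0609, adjusted p = 2e-13), a 2.25-fold lower level, and in the mixed cultures with -0.56 (SE 0.0620, adjusted p = 1.6e-07). In MCF10A the log2 fold change was -0.12 (SE 0.0477, adjusted p = 0.037), and it no longer passed in 9 of 14 alternatives, among them without MCF10A NIR replicate 2 (-0.06, adjusted p = 0.28) and with upper-quartile scaling (-0.03, adjusted p = 0.58, the highest of a range from 0.0064). The call was also lost without MCF10A NIR replicate 3 and without MCF10A IR replicate 1 or 2.

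TXNRD1 (chr12:104215779-104350307) encodes cytosolic thioredoxin reductase, which passes electrons from NADPH to thioredoxin, and SRXN1 (chr20:646615-653200) encodes sulfiredoxin, which repairs overoxidized peroxiredoxins. TXNRD1 had 330.3, 327 and 341 CPM in non-irradiated MCF10A and 303, 278 and 302 CPM after irradiation, with no overlap. In HCT116 it had 822, 771 and 778 CPM without irradiation and 805, 848 and 844 CPM with it, and these overlapped. Mixed libraries had 782, 870.0 and 831 CPM without and 909.9, 914 and 948 CPM with irradiation, again apart. TXNRD1 fell in MCF10A with a log2 fold change of -0.20 (SE 0.0418, adjusted p = 0.0002). The log2 fold change in HCT116 was 0.08 (95% interval -0.03 to 0.19, adjusted p = 0.2). In the mixed cultures TXNRD1 rose, with a log2 fold change of 0.13 (SE 0.0531, adjusted p = 0.045), a call lost in 7 of 14 alternatives, among them without Mixed NIR replicate 1 or 3 and without any of the 3 irradiated mixed libraries (adjusted p from 0.0038 to 0.25). SRXN1 was measured at 88 to 267 counts, the 18 libraries ranging from 3.01 to 7.14 CPM, and passed the test in none of the 3 kinds of culture. Its log2 fold changes were -0.14 (95% interval -0.57 to 0.28) in MCF10A, 0.16 (-0.22 to 0.55) in HCT116 and 0.35 (-0.04 to 0.74) in the mixed cultures. Without Mixed NIR replicate 3 the mixed value was 0.61 (adjusted p = 0.0096, in a range up to 0.4 over the alternatives). A protein-coding gene on the same strand overlaps exons of SRXN1 in GENCODE 29, and the same holds for OSGIN1.

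HMOX1 (chr22:35381096-35394207) encodes heme oxygenase 1, which breaks down heme, and was the only gene of the 9 called higher after irradiation in all 3 kinds of culture. MCF10A libraries had 2.00, 1.24 and 1.30 CPM, from 38 to 68 counts, without irradiation and 3.86, 4.52 and 4.29 CPM with it. HCT116 libraries had 14.5, 9.32 and 9.56 CPM without irradiation and 20.1, 18.1 and 20.9 CPM with it. In the mixed cultures the values were 13.8, 13.3 and 13.6 CPM without and 23.2, 19.8 and 20.9 CPM with irradiation. The irradiated libraries were higher than every non-irradiated one of their kind. The log2 fold changes were 1.46 (SE 0.247, adjusted p = 1.2e-05) in MCF10A, 0.82 (SE 0.139, adjusted p = 2.6e-05) in HCT116 and 0.62 (SE 0.0995, adjusted p = 2.1e-05) in the mixed cultures.

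OSGIN1 (chr16:83953240-83966332) encodes a growth inhibitor induced by oxidative stress. It had 1.71, 2.14 and 1.71 CPM in non-irradiated MCF10A and 4.26, 2.12 and 4.88 CPM after irradiation, where replicate 2 stayed at the non-irradiated level. HCT116 had 16.8, 12.3 and 15.2 CPM without irradiation and 13.7, 12.2 and 15.1 CPM with it. The mixed cultures had 11.3, 13.2 and 15.4 CPM without irradiation and 19.5, 17.6 and 15.1 CPM with it. Irradiated and non-irradiated libraries overlapped in all 3 kinds of culture. The log2 fold change was 1.00 in MCF10A (SE 0.271, adjusted p = 0.0025) and -0.11 in HCT116, which did not pass (95% interval -0.38 to 0.15, adjusted p = 0.47). In the mixed cultures it was 0.36 (SE 0.124, adjusted p = 0.021), a call lost in 4 of 14 alternatives, among them without Mixed NIR replicate 1 and without Mixed IR replicate 1 or 2 (adjusted p from 0.0056 to 0.13).

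**Figure D2:**
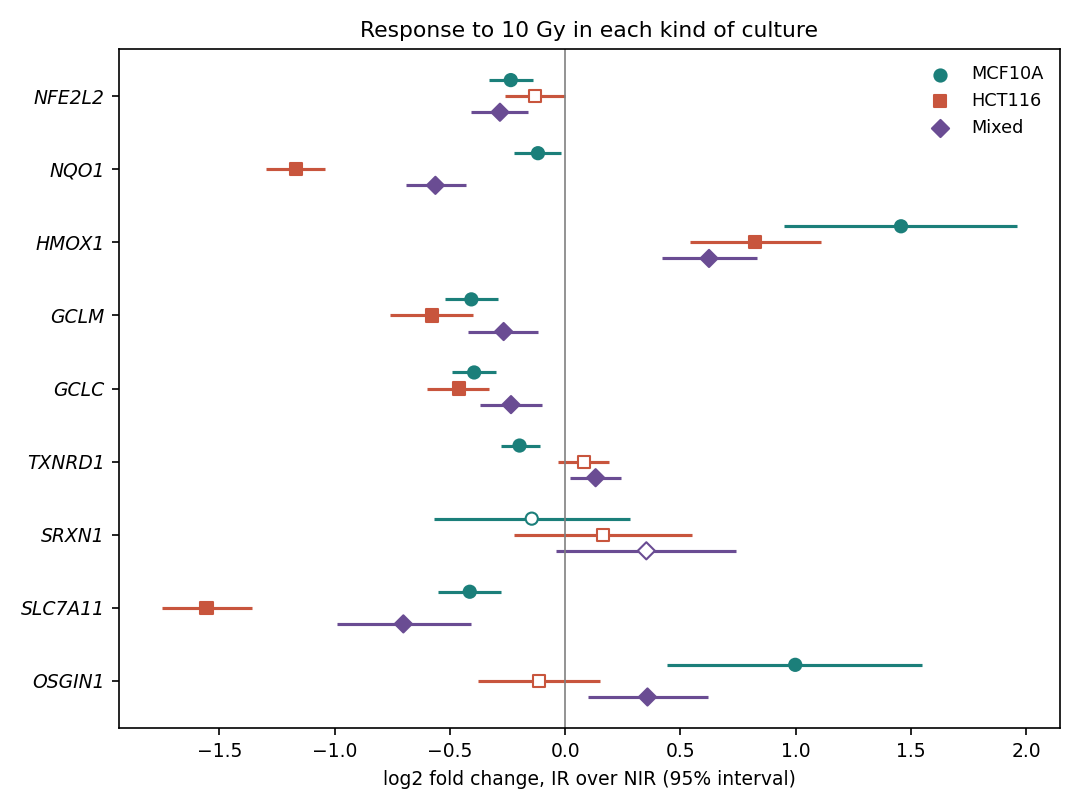
log2 fold change of irradiated over non-irradiated libraries (x axis) for each gene (y axis) in MCF10A (circles), HCT116 (squares) and mixed cultures (diamonds), with 95% intervals; filled symbols passed the test and open ones did not. NQO1 and SLC7A11 in HCT116 lie at -1.17 and -1.56, away from the values of the same genes in MCF10A at -0.12 and -0.41.

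The lines differed in their levels before any irradiation. Each line had its own medium, so line and medium cannot be told apart in these comparisons or in the differences between their responses. Of the 9 genes, 4 were higher and 4 lower in non-irradiated HCT116 than in MCF10A, where 74.8% of all genes tested were called (38.7% higher and 36.1% lower). After irradiation 3 were higher and 5 lower, with 74.9% of all genes called (38.1% higher and 36.8% lower). OSGIN1 and HMOX1 were 6.92-fold and 6.40-fold higher in non-irradiated HCT116, with log2 fold changes of 2.79 (SE 0.182, adjusted p = 1.5e-10) and 2.68 (SE 0.234, adjusted p = 9.2e-09). TXNRD1 was higher too, with a log2 fold change of 1.05 (SE 0.0491, adjusted p = 1.3e-12) without and 1.27 (SE 0.0463, adjusted p = 1e-18) with irradiation. SLC7A11, GCLC and GCLM, which serve glutathione synthesis, were all lower in HCT116, with log2 fold changes of -1.69, -0.81 and -0.44 without irradiation and -2.89, -0.93 and -0.67 with it. The SLC7A11 difference thus went from 3.22-fold to 7.41-fold. NFE2L2 was lower in HCT116 by little, with log2 fold changes of -0.46 without and -0.41 with irradiation. SRXN1 did not pass in either comparison (adjusted p = 0.46 and 0.85). The median over all genes was 0.05 and 0.04 without and with irradiation. On the same genes it was 0.25 and 0.22 with upper-quartile scaling and 0.25 and 0.27 with library size only, and with the main scaling and no filter on low counts it was 0.26 and 0.14. The called genes among the 9 kept their direction and call under each of these settings, but their sizes moved. Over the settings besides leaving out 1 library, SLC7A11 ran from -1.71 to -1.48 without irradiation and from -2.9 to -2.66 with it. NFE2L2 ran from -0.48 to -0.25 and from -0.42 to -0.18, and NQO1 after irradiation from -0.61 to -0.37. Fold changes use the main scaling and CPM values the library total, so ratios of CPM differ from the fold changes.

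NQO1 was the gene whose order between the lines turned. Non-irradiated HCT116 had 521 ± 36.2 CPM against 318 ± 19.6 CPM in MCF10A (mean ± SD of 3 libraries), a log2 fold change of 0.51 (SE 0.0597, adjusted p = 4.3e-07). Irradiated HCT116 had 231 ± 13.2 CPM against 298 ± 16.1 CPM, a log2 fold change of -0.60 (SE 0.0505, adjusted p = 5.1e-11). The libraries of the lines did not overlap in either comparison. Over the 6 groups NQO1 was highest in non-irradiated HCT116, next in the non-irradiated mixed cultures at 452 ± 42.0 CPM, and lowest in irradiated HCT116. The 3 groups in between, non-irradiated MCF10A, irradiated mixed and irradiated MCF10A, each overlapped with the next in this order. For SLC7A11 every neighbouring pair of groups in the order was apart except the non-irradiated mixed cultures (84.1 ± 27.0 CPM) and HCT116 (71.9 ± 9.77 CPM). For TXNRD1 the MCF10A groups lay far below the other 4, and for NFE2L2 the 5 groups below non-irradiated MCF10A each overlapped with the next. HMOX1 was highest in irradiated mixed (21.3 ± 1.75 CPM) and irradiated HCT116 cultures (19.7 ± 1.49 CPM), which overlapped, followed by the same cultures without irradiation, which overlapped with each other, and by irradiated and then non-irradiated MCF10A, each apart from the next. For OSGIN1 the HCT116 and mixed groups each overlapped with the next in the order, and all lay above both MCF10A groups. Irradiated mixed libraries (15.13 to 19.47 CPM) did not overlap with irradiated HCT116 libraries (12.15 to 15.08 CPM), which are not neighbours in that order. GCLC was highest in MCF10A, where the irradiated libraries still lay above non-irradiated HCT116, and lowest in irradiated HCT116 (93.05 ± 4.15 CPM). GCLM had the same ends of its order, and each of the 4 groups in between overlapped with the next. Neighbouring groups of SRXN1 overlapped except irradiated mixed and irradiated HCT116 cultures.

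The response to irradiation itself was then compared between the lines, as the log2 fold change in HCT116 minus that in MCF10A. These values came from a fit of the 4 monoculture groups with its own scaling and differ from subtraction of the fold changes given above. Of the 9 genes, 1 was called higher and 4 lower, against 37.3% of all genes tested (15.4% higher and 21.9% lower), and the median was -0.25 for the 9 genes and -0.10 for all. In the fit without mitochondrial and the 10 most abundant genes, the median of all genes was -0.006. SLC7A11 fell more in HCT116 by 1.22 on the log2 scale (SE 0.131, adjusted p = 4.5e-08), and NQO1 by 1.13 (SE 0.0809, adjusted p = 4.7e-11). The OSGIN1 responses differed by -1.19 (SE 0.294, adjusted p = 0.002), with the rise in MCF10A and no call in HCT116. TXNRD1 differed by 0.20 (SE 0.0647, adjusted p = 0.015), and by 0.32 without MCF10A IR replicate 1 or without MCF10A IR replicate 3 (adjusted p = 0.00077 and 0.0008, in a range from 6.6e-05 to 0.044). HMOX1 differed by -0.71 (SE 0.265, adjusted p = 0.037), with the larger rise in MCF10A, but this call was lost in 12 of 20 alternatives (adjusted p from 0.0084 to 0.15), 8 of which each left out 1 library: MCF10A NIR replicate 2 or 3, any irradiated MCF10A library, HCT116 NIR replicate 1, or HCT116 IR replicate 1 or 2. It was -0.48 without HCT116 NIR replicate 1. GCLM (-0.25, 95% interval -0.47 to -0.03, adjusted p = 0.07), GCLC (-0.14, 95% interval -0.32 to 0.03, adjusted p = 0.18) and NFE2L2 (0.03, 95% interval -0.13 to 0.19, adjusted p = 0.83) did not pass. GCLM passed when counts were halved and without HCT116 NIR replicate 3 or HCT116 IR replicate 3 (adjusted p from 0.017 to 0.51).

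The mixed cultures were set against HCT116 monocultures, the line they resembled in their marker genes. In bulk RNA fewer cells of a type and less RNA per cell cannot be told apart, and the medium of the mixed cultures cannot be told apart from the mixing. Without irradiation 0 of the 9 genes passed edgeR's test or DESeq2's, where 2.04% of all genes passed edgeR's (0.887% higher and 1.15% lower). NQO1 was the 1 gene of the 9 with an unadjusted p under 0.05, at 0.014, and its log2 fold change was -0.19 (adjusted p = 0.19). With no filter on low counts 1 gene was called higher (SLC7A11, 0.25, adjusted p = 0.04), and with replicate number as a block 1 was called lower (NQO1, -0.19, adjusted p = 0.05 after rounding). After irradiation 5 of the 9 were higher in the mixed cultures and the other 4 did not pass, where 8.56% of all genes were called (5.08% higher and 3.48% lower). These 5 were SLC7A11, NQO1, GCLM, GCLC and TXNRD1.

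SLC7A11 stood at 46.0 to 59.1 CPM in irradiated mixed libraries and at 22.1 to 26.5 CPM in irradiated HCT116, with no overlap. Its log2 fold change was 1.11 (SE 0.0865, adjusted p = 9.6e-11), a 2.16-fold higher level. NQO1 was at 299.6 to 322 CPM against 219 to 245 CPM, with a log2 fold change of 0.42 (SE 0.0511, adjusted p = 6.8e-07). GCLM had a log2 fold change of 0.35 (SE 0.0782, adjusted p = 0.0036, lost without Mixed IR replicate 3 at 0.062, the highest of a range from 1.2e-05). GCLC and TXNRD1 had smaller log2 fold changes of 0.21 (SE 0.0614, adjusted p = 0.029) and 0.14 (SE 0.0430, adjusted p = 0.036). The call of GCLC was lost without HCT116 IR replicate 1 or 2 or Mixed IR replicate 1 or 2 (0.14 without Mixed IR replicate 1), and that of TXNRD1 without HCT116 IR replicate 1 or 3 or any irradiated mixed library, with adjusted p up to 0.21 and 0.18. The other 4 genes did not pass: OSGIN1 at 0.35 (95% interval 0.11 to 0.58, adjusted p = 0.057), SRXN1 at 0.20 (-0.11 to 0.52), HMOX1 at 0.11 (-0.09 to 0.31) and NFE2L2 at -0.04 (-0.16 to 0.07). OSGIN1 passed in 4 of 14 alternatives (adjusted p from 0.021 to 0.26), among them without Mixed IR replicate 3.

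The response of the mixed cultures was also tested against that of HCT116, and 2 of the 9 genes were called, both higher, where 0.83% of all genes were called (0.681% higher and 0.149% lower). NQO1 fell less in the mixed cultures, by a difference of 0.62 (SE 0.0887, adjusted p = 0.00033). For SLC7A11 the difference was 0.87 (SE 0.197, adjusted p = 0.029), and this call was lost with DESeq2 (0.85, adjusted p = 0.14, the highest over the alternatives) and in 9 of the 12 fits without 1 library (0.70 to 0.90). Those 9 fits left out HCT116 NIR replicate 2 or 3, any irradiated HCT116 library, Mixed NIR replicate 1 or 3, or Mixed IR replicate 2 or 3. Without Mixed NIR replicate 2, the library that stood at 115 CPM, the call held. The comparisons of the mixed cultures and of MCF10A use the same HCT116 libraries, so their values are not independent.

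**Figure D3:**
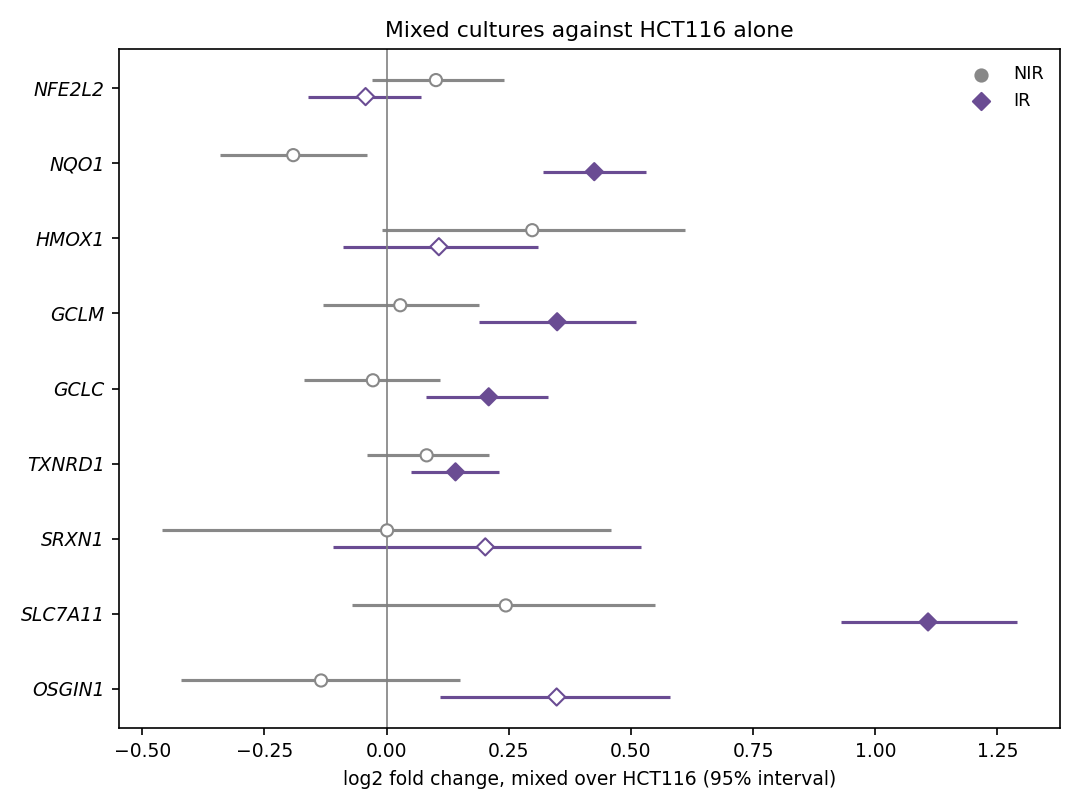
log2 fold change of mixed over HCT116 cultures (x axis) for each gene (y axis), without irradiation (grey circles) and after 10 Gy (purple diamonds), with 95% intervals; filled symbols passed the test. SLC7A11 at 1.11 and NQO1 at 0.42 lie farthest to the right, both after irradiation, and no gene is filled without irradiation.

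Several basal mammary genes were higher in the mixed libraries than in HCT116, at levels far below those in MCF10A. Of the 10 basal mammary genes, 3 were higher than in HCT116 without irradiation and the rest did not pass, and 6 were higher and 1 lower after it. TGFBI, which had no count in non-irradiated HCT116 and 0.234 CPM in irradiated HCT116, stood at 31.2 CPM and 124 CPM in the mixed cultures, against 2555 and 3299 CPM in MCF10A. The basal list's summed level in irradiated mixed cultures exceeded that in HCT116 by 0.706% of the gap between HCT116 and MCF10A. That sum holds CAV1, which stood at 293 CPM in irradiated mixed cultures against 372 CPM in irradiated HCT116. Without CAV1 the excess was 1.41% of the gap, and for TGFBI alone it was 3.74%, values chosen after seeing the data. For SLC7A11 the excess after irradiation was 28.4 CPM, 22.0% of the gap between the lines, and for GCLM and GCLC it was 79.0% and 25.9%. NQO1 in irradiated mixed cultures exceeded HCT116 by 80.9 CPM, which is 121% of the gap, and TXNRD1 moved away from MCF10A. The percentages in this paragraph use CPM of the library total and depend on that choice. With the main scaling of the tests, NQO1 after irradiation had 0.42 for mixed over HCT116 and -0.60 for HCT116 over MCF10A. For GCLM these log2 fold changes were 0.35 and -0.67. On that scaling the rise of each gene was smaller than the gap. The intestinal list was lower in the mixed cultures than in HCT116 by 21.6% of its gap after irradiation and by 22.1% without it. After irradiation KRT19 carried this difference, at 1177 CPM in mixed cultures against 1549 CPM in HCT116. MYH14 and CDX2 were then not lower, at 124.5 against 114.6 CPM and 12.79 against 12.56 CPM. Without irradiation KRT19 stood at 680.3 against 886.5 CPM, MYH14 at 112.2 against 131.6 CPM and CDX2 at 8.162 against 10.0 CPM. SLC7A11 without irradiation exceeded HCT116 by 9.41% of its gap, without passing the test. The part of MCF10A RNA in these differences was not tested.

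The 9 genes did not vary together over the 18 libraries. Pearson's r of log2(CPM + 1) was 0.93 between GCLC and SLC7A11 and 0.81 between GCLC and GCLM, and 0.95 between TXNRD1 and OSGIN1 and 0.94 between HMOX1 and OSGIN1. HMOX1 ran opposite to GCLC, with an r of -0.93. NQO1 followed none of them closely, its highest r being 0.60, with GCLM. These values describe 18 libraries that share 2 cell lines, so a difference between the lines enters all of them, and they carry no test. Among 9921 genes with a mean of at least 10 CPM, the gene most like each by the same measure was MCM8 for NFE2L2 (0.953), CD47 for NQO1 (0.955), RAP1GAP2 for HMOX1 (0.990), HAUS6 for GCLM (0.965), SIMC1 for GCLC (0.978), DNAJC22 for TXNRD1 (0.997), HEG1 for SLC7A11 (0.969) and NUMBL for OSGIN1 (0.986). For SRXN1 the highest was 0.744, with CCDC97.

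Genes that control NRF2 changed in both directions, as did all genes tested. Of all genes, 55.4%, 52.5% and 49.4% were called after irradiation in MCF10A, HCT116 and mixed cultures. The counts called in this and the following lists therefore carry little information by themselves. Of 14 such genes, 8 were higher and 3 lower in irradiated MCF10A, 6 and 4 in HCT116, and 3 and 3 in the mixed cultures, with medians of 0.18, -0.05 and 0.06 against 0.00 to 0.01 for all genes. SQSTM1, whose protein p62 can take KEAP1 out of action, rose from 208 to 417 CPM in MCF10A (log2 fold change 0.98, adjusted p = 9.4e-16) and from 207 to 266 CPM in the mixed cultures (0.33, adjusted p = 3.7e-05). In HCT116 it rose from 184 to 221 CPM (0.27, adjusted p = 0.00051). CUL3 and RBX1, parts of the ubiquitin ligase that KEAP1 serves, fell with log2 fold changes of -0.35 and -0.57 in MCF10A, -0.33 and -0.36 in HCT116 and -0.48 and -0.38 in the mixed cultures. KEAP1 itself fell with -0.20 in MCF10A (adjusted p = 0.022) and -0.29 in the mixed cultures (adjusted p = 0.0011), and its value in HCT116, -0.10, did not pass. GSK3B and BTRC, which act in another route of NRF2 degradation, rose with 0.13 and 0.31 in MCF10A, 0.46 and 0.28 in HCT116 and 0.28 and 0.28 in the mixed cultures. FBXW11, of the same list, rose with 0.20 in HCT116, and its values of 0.05 in MCF10A and 0.08 in the mixed cultures did not pass. MAFK, a small MAF partner, rose with 0.53 in MCF10A and fell with -0.43 in HCT116, and its value in the mixed cultures, -0.16, did not pass. BACH1, a repressor at antioxidant response elements, was lower in HCT116 than in MCF10A, at 46.8 against 116 CPM without irradiation (log2 fold change -1.51, adjusted p = 1e-13) and 42.9 against 139.6 CPM with it (-1.93, adjusted p = 4.5e-21). MAFF was lower in HCT116 as well (-1.28 without irradiation), and NFE2L3, a relative of NFE2L2, was higher (1.70).

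The other genes around glutathione and thioredoxin were also split. Of 19 tested genes of the glutathione system, 7 were higher and 7 lower in irradiated MCF10A, 8 and 5 in HCT116, and 6 and 5 in the mixed cultures. GPX1, a glutathione peroxidase, rose from 29.3 to 71.1 CPM in HCT116 (log2 fold change 1.29, adjusted p = 9.3e-11) with 1.33 in the mixed cultures and with 0.33 in MCF10A, and its response was larger in HCT116 than in MCF10A by 0.89 (adjusted p = 2e-05). GPX4, which reduces lipid peroxides, fell with -0.58 in HCT116 and -0.65 in the mixed cultures, and its value in MCF10A, 0.12, did not pass. GLRX, a glutaredoxin, rose with 0.69 in MCF10A and fell with -0.47 in HCT116, a difference of -1.24 (adjusted p = 1.1e-08), and its value in the mixed cultures, -0.08, did not pass. Between the lines, GSR, glutathione reductase, was higher in HCT116 (306 against 100.2 CPM, log2 fold change 1.41) and MGST1 lower (62.0 against 320.1 CPM, -2.57). SLC3A2, which encodes the partner chain of the SLC7A11 protein, was lower in non-irradiated HCT116 as well, at 167 against 443 CPM (-1.61, adjusted p = 2.7e-13). In the thioredoxin list, 2 of 11 tested genes were higher and 5 lower in irradiated MCF10A, 3 of 10 and 3 in HCT116, and 2 of 11 and 2 in the mixed cultures. PRDX3, the mitochondrial peroxiredoxin, fell in all 3 kinds of culture, with log2 fold changes of -0.28, -0.25 and -0.32. PRDX5 rose with 0.73 in MCF10A, and its values in HCT116 and the mixed cultures did not pass. PRDX6 rose with 0.231 in HCT116 and 0.235 in the mixed cultures and fell with -0.148 in MCF10A. TXNIP, which binds thioredoxin, stood at 268 and 416 CPM in MCF10A without and with irradiation, at 4 counts in non-irradiated HCT116 in all, at 0 in irradiated HCT116 (a floor of 3 counts is 0.0302 CPM), and at 2.25 and 5.24 CPM in the mixed cultures.

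Detoxification genes changed in both directions in each kind of culture. In irradiated HCT116 4 of 13 tested were higher and 6 lower (median -0.45), in MCF10A 4 of 15 were higher and 5 lower (median -0.03), and in the mixed cultures 5 of 14 were higher and 4 lower (median 0.11), against medians of 0.00 to 0.01 for all genes. NQO2, a relative of NQO1, fell from 50.0 to 23.9 CPM in HCT116 (log2 fold change -1.05, adjusted p = 2.8e-10) with -0.79 in the mixed cultures and, from 8.31 to 4.99 CPM, with -0.75 in MCF10A (adjusted p = 0.00023). PIR, an iron-binding protein, fell with -1.12 in MCF10A, -0.91 in HCT116 and -0.83 in the mixed cultures. The transporters ABCC2 and ABCC3 rose in HCT116 with 0.49 and 0.54 and in the mixed cultures with 0.55 and 0.88, while in MCF10A ABCC2 rose with 0.20 and ABCC3 fell with -0.13. ALDH3A1 fell in MCF10A with -1.16. AKR1C1 rose in MCF10A with 0.68 and fell in HCT116 with -1.17, where it stood at 2.42 CPM or less on average, and reads of AKR1C1, AKR1C2 and AKR1C3, close copies of each other, may have been split between them. CBR1, a carbonyl reductase, had no count in the 6 HCT116 libraries (a floor of 3 counts is 0.0318 and 0.0302 CPM without and with irradiation) and 41.0 ± 2.04 and 40.8 ± 1.69 CPM in MCF10A, and stood at 0.0577 and 0.130 CPM in the mixed cultures.

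Among the 6 tested genes of heme and iron handling besides HMOX1, 4 were higher in irradiated MCF10A and the other 2 did not pass, 2 were higher and 2 lower in HCT116, and 2 were higher and 1 lower in the mixed cultures. FTH1, the ferritin heavy chain, which has many processed copies in the genome, rose from 229 to 615 CPM in HCT116 (log2 fold change 1.43, adjusted p = 1.8e-07), with 0.33 in MCF10A and with 1.28 in the mixed cultures. HMOX2, the constitutive heme oxygenase, rose with 1.01 in HCT116, 0.87 in the mixed cultures and 0.28 in MCF10A. The enzymes that supply NADPH, which TXNRD1, NQO1 and glutathione reductase use, gave 2 higher and 3 lower of 7 in MCF10A, 1 and 3 in HCT116, and 2 and 2 in the mixed cultures. Malic enzyme ME1 rose in all 3, with 0.31, 0.52 and 0.41. IDH1 fell in all 3, with -0.33, -0.43 and -0.35. TALDO1 fell with -0.40 in HCT116 and -0.47 in the mixed cultures. PGD and TKT fell with -0.40 and -0.35 in MCF10A, and TKT rose with 0.19 in the mixed cultures. Of 4 tested genes that remove superoxide and peroxide, 1 was higher and 1 lower in MCF10A, and 2 were higher and 1 lower in HCT116 and in the mixed cultures. SOD2, the mitochondrial superoxide dismutase, rose in MCF10A from 1055 to 1289 CPM (0.27), in HCT116 with 0.16 and in the mixed cultures with 0.15. It was lower in HCT116 than in MCF10A, at 131 CPM without irradiation (-3.21).

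SLC7A11 is also a known target of ATF4, the transcription factor of the amino acid response, and so a list of ATF4 itself and 7 of its targets was set beside it. In irradiated HCT116 1 of these 8 genes was higher and 5 lower (median -0.81), in the mixed cultures 1 and 5 (median -0.60), and in MCF10A 3 and 3 (median -0.15). ATF4 fell from 313 to 160.0 CPM in HCT116 (log2 fold change -0.96, adjusted p = 3.2e-11) with -0.80 in the mixed cultures and with -0.27 in MCF10A, and its response differed between the lines by -0.77 (adjusted p = 7.3e-08). PHGDH, the first enzyme of serine synthesis, fell with -1.62 in MCF10A, -2.07 in HCT116 and -1.64 in the mixed cultures, and PSAT1, the next enzyme of that pathway, with -0.70 in MCF10A, its values of 0.05 in HCT116 and -0.05 in the mixed cultures not passing. SESN2, a stress-induced sestrin, rose with 0.86, 1.09 and 0.81. The lists were described by counts and medians and were not tested as sets.

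**Figure D4:**
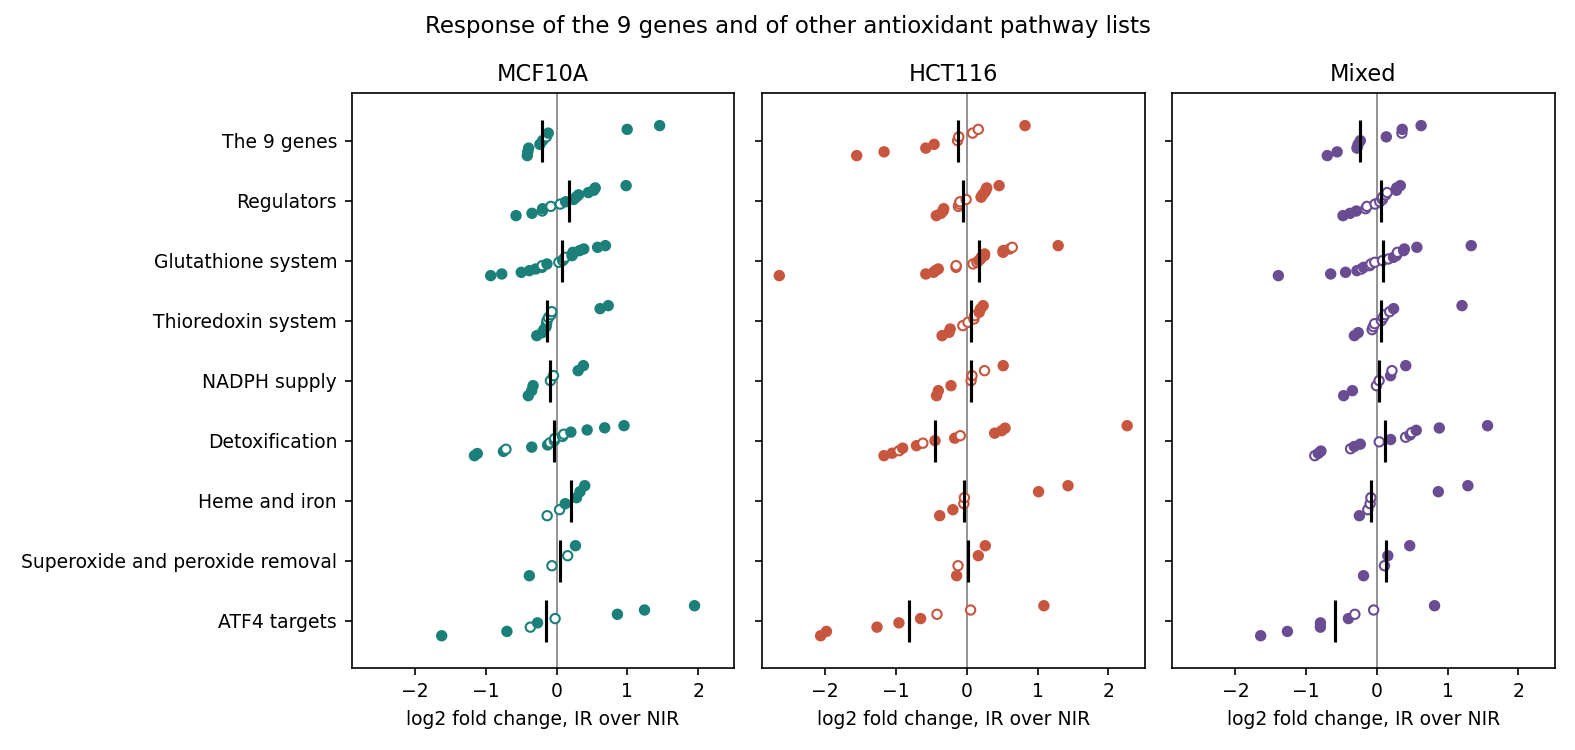
log2 fold change of irradiated over non-irradiated libraries (x axis, the same scale in the 3 panels) for the genes of each list (y axis), filled where the gene passed the test, with a black line at the list's median. The medians of the ATF4 list lie at -0.81 in HCT116 and -0.60 in the mixed cultures, and those of the 9 genes at -0.20, -0.13 and -0.24 in MCF10A, HCT116 and mixed cultures.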

How the data were processed

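Polyadenylated RNA was sequenced from 18 libraries after TriZol extraction and a stranded Illumina library kit, per the labels. The authors deposited 1 table of raw counts per gene symbol for each library. Per the submitters' processing notes they used fastp, STAR and featureCounts with GRCh38; the versions, the annotation and the use of strand in counting are not given in the sources used here. Of the values from 1 to 10, 68.3% were even, so fits with counts halved were among the alternatives.

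CPM values used the library total. Fold changes, standard errors (log2 fold change over the root of F) and 2-sided tests came from edgeR 4.0.16 in R 4.3.3 (TMM, filterByExpr, quasi-likelihood), fitted on all genes of the compared groups without covariates and checked on simulated counts. Alternatives were DESeq2 1.42.0, other scalings and filters, a fit on all 18 libraries, a replicate block and leaving out each library. Gene positions and promoter sequences are from RefSeq GRCh38.p14 and exon overlaps from GENCODE 29, which may differ from the annotation counted.

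Replicates were described as biological. No 2 replicates agreed within counting error (chi-squared per gene 4.77 to 14.0). The 9 genes and the other lists were chosen with earlier results of these data known. From each list, genes were named by rule: called, at least 10 CPM in the higher group, no overlap of libraries, up to 2 per direction in comparisons of irradiation or of lines, and up to 1 in the difference between responses without the rule on overlap. KEAP1 and FBXW11 were given outside that rule. CDKN1A and MKI67 checked the irradiation labels.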

Additional observations from a re-analysis of the deposited data

Results flagged for a closer look

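The following results were listed because a test of the difference between 2 responses to irradiation passed an adjusted p under 0.05 in edgeR. All values are differences of log2 fold changes, each from a fit of the 4 groups compared.

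Between HCT116 and MCF10A, the response was lower in HCT116 for NQO1 (-1.13), SLC7A11 (-1.22), OSGIN1 (-1.19) and HMOX1 (-0.71), and higher for TXNRD1 (0.20). NQO1 and SLC7A11 fell in both lines and fell more in HCT116, whereas HMOX1 rose in both and rose more in MCF10A. The call of the HMOX1 difference was lost in 12 of 20 alternatives (adjusted p from 0.0084 to 0.15), and the fall of NQO1 in MCF10A itself (a log2 fold change of -0.12) lost its call in 9 of 14. Among the other genes named from the lists, the response was lower in HCT116 for AKR1C1 (-1.90), GLRX (-1.24), MAFK (-1.03), BLVRB (-0.86), ATF4 (-0.77) and TALDO1 (-0.39). It was higher in HCT116 for FTH1 (1.02), GPX1 (0.89), PSAT1 (0.68), ABCC3 (0.59), NFE2L3 (0.38), PGD (0.38) and PRDX6 (0.30). MAFK, which encodes a small MAF partner of NRF2, fell from 42.8 to 31.5 CPM in HCT116 and went from 22.0 to 32.2 CPM in MCF10A. AKR1C1 stood at 2.42 and 1.05 CPM in HCT116 without and with irradiation and at 150.4 and 245 CPM in MCF10A. The value of TXNIP (-4.15) rests on 4 counts in non-irradiated HCT116 and 0 in irradiated HCT116, so it depends on the prior count of the fit.

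Between mixed and HCT116 cultures, the fall was smaller in the mixed cultures for NQO1 (0.62) and SLC7A11 (0.87). The SLC7A11 call was lost with DESeq2 (adjusted p = 0.14) and in 9 of the 12 fits that left out 1 library.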

How the results depend on the processing

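Of 1242 values of the 9 genes under alternatives, 1179 kept their direction or lack of a call and their side of the threshold, 52 lost the call, 11 gained it and 0 changed sign with a call; 67 of the 81 gene results were the same under each alternative run. Leaving out 1 library in turn gave 1 to 3 genes called higher in irradiated mixed cultures (3 with all libraries), 3 to 4 in irradiated mixed over HCT116 cultures (5), and 1 to 2 in the difference of responses between mixed and HCT116 cultures (2), where DESeq2 gave 1. In non-irradiated mixed against HCT116 cultures, 0 genes were called, but with no filter on low counts 1 was higher (SLC7A11, 0.25, adjusted p = 0.04, the lowest of a range up to 0.86), and with replicate number as a block 1 was lower (NQO1, -0.19, adjusted p = 0.05 after rounding). The cause of these changes was not tested, and the fits that left 1 library out also had fewer libraries. The numbers showed no pairing of libraries: residuals of same-numbered libraries correlated by -0.043 to 0.109. The block also lost TXNRD1 in irradiated mixed cultures (adjusted p = 0.064) and gained OSGIN1 in irradiated mixed over HCT116 cultures (adjusted p = 0.021). For the list genes selected by the rule, 2126 values kept the call, 58 lost it and 0 changed sign. Counts per list stayed within 1.5 times of the main count in 2025 values and moved in 183. The CPM levels of the 9 genes in the 6 groups also depended on the total used. With TMM effective library sizes, 19 of these levels moved and 35 stayed the same. Without mitochondrial genes in the total, 39 moved and 15 stayed the same, so CPM comparisons between groups carry that limit. SRXN1 rested on 88 to 267 counts a library.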
